A study of Mus musculus with 29 samples.

Results

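The 10 genes described here encode proteins that the liver secretes to act on other tissues, or that bind and control such proteins: Igf1, Igfbp1, Igfbp2, Fgf21, Gdf15, Inhbe, Fst, Ahsg, Fetub and Lect2. They were chosen by symbol, as the 10 identifiers of that name among the 54532 gene identifiers of a count table, and all 10 passed the filter on low counts that left 15603 genes for testing. These genes and the gene lists used below were chosen with earlier results of these data known. Counts given beside the share of all genes therefore describe them and do not test for an excess. The table came from poly-A RNA-seq of livers from obese male mice. Prox1 is a homeodomain transcription factor of hepatocytes, and in the K556R mice its lysine at the SUMO attachment site was replaced by arginine in a conditional, hepatocyte-specific knock-in allele that Cre recombination switched on at 8 weeks of age. All mice, wild type (WT) included, were on chow until that age and then on a diet with 45% fat and 20% fructose for 18 weeks, and livers were taken at zeitgeber time 15 to 17 after fasting or after refeeding. There were 8 libraries from refed K556R livers, 6 from refed WT livers, 7 from fasted K556R livers and 8 from fasted WT livers. Each group was spread over 2 batches, with 4 and 4 refed K556R, 3 and 3 refed WT, 4 and 3 fasted K556R and 4 and 4 fasted WT libraries in batches 1 and 2. How Cre was delivered, whether the WT mice received it, and how long the mice were fasted or refed are not given in the sources used here.

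The insulin-like growth factor IGF1 is made by hepatocytes under growth hormone and circulates on binding proteins; IGFBP1 and IGFBP2 are liver-made binding proteins, and Igfbp1 transcription is repressed by insulin through loss of FOXO1 from its promoter. FGF21 and GDF15 are stress-induced hormones: FGF21 signals through an FGF receptor with the co-receptor beta-klotho, and GDF15 through the brainstem receptor GFRAL. Inhbe encodes the inhibin beta E chain of activin E, follistatin (Fst) binds and neutralises activins, fetuin-A (Ahsg) and fetuin-B (Fetub) are abundant plasma proteins of the cystatin superfamily, and LECT2 is a hepatocyte-made chemotactic and metabolic factor.

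Library totals ran from 14385218 to 27278251 counts. Whole-gene counts of Prox1 averaged 149.7 ± 25.5 CPM in refed K556R livers and 164 ± 22.7 in refed WT livers, and 186 ± 12.3 in fasted K556R livers and 174 ± 12.97 in fasted WT livers (SD; CPM, per-million counts with library sizes scaled by the trimmed mean of M-values). The Prox1 intervals of K556R over WT were 0.80 to 1.03-fold (refed) and 0.94 to 1.21-fold (fasted), and whole-gene counts do not show which allele was read. Prox1 was lower after refeeding over both genotypes, with a log2 fold change of -0.20 (edgeR adjusted p = 0.018). Of 12 genes chosen as checks of the feeding state, 7 were higher and 3 lower after refeeding over both genotypes, where 12.9% of all genes were higher and 12.8% lower. Their estimates were positive for 8 and negative for 4. The list mixes genes of fasting and of feeding, so these counts do not say how many moved in a given direction for their kind. Hepatocyte markers summed to 55610 to 104500 CPM over the 29 libraries, of which Alb alone had 41800 to 86790 CPM. In fasted K556R livers the sum was 74600 to 104500 CPM in batch 1 and 55610 to 61390 in batch 2, without overlap. In each other group the batches overlapped. Of the adipocyte markers, Lep was at 0 in all libraries and Adipoq, Plin1 and Retn reached at most 0.226 CPM, whereas Cfd had 0.991 to 28.8 CPM. No tested marker of 9 cell types passed for genotype in the mean of both states, but of the adipocyte markers only 1 of 5 and of the neutrophil markers only 2 of 6 were tested, and of the pancreatic acinar markers 0 of 6. After refeeding over both genotypes, 2 of 8 hepatocyte markers passed, Hnf4a and Tat, both lower. The hepatocyte list was mixed, with 5 estimates negative and 3 positive. Of 8 stellate cell markers 1 passed, Lrat, which was higher, and 5 estimates were positive and 3 negative. Of all genes 25.6% passed this contrast. Some lists leaned 1 way with no marker past the threshold for genotype. Of the 8 hepatocyte markers, 7 had a lower estimate in K556R than in WT livers in the mean of both states (median log2 -0.047). In refed livers 6 of 8 were lower (-0.099). All 10 macrophage markers had a higher estimate in K556R than in WT livers (median log2 0.26 in refed livers and 0.17 in the mean of both states), as did all 5 tested cholangiocyte markers (0.52 and 0.29), and all 5 erythroid markers a lower one (-0.16 in the mean). After refeeding the estimate was lower for all 10 macrophage markers over both genotypes and in WT livers, and for 8 of 10 in K556R livers. The summed macrophage level spanned 246 to 417 CPM in refed K556R, 189 to 357 in refed WT, 154 to 516 in fasted K556R and 169 to 628 in fasted WT livers. The part of these shifts in the results was not tested. Of the 29 libraries 4 stood apart in the 10 genes. Replicate 4 of refed K556R livers in batch 1 had the highest Fetub and Ahsg levels of all, replicate 1 of refed WT livers in batch 2 the lowest Igfbp1 and Gdf15 and the highest Igfbp2 levels, replicate 2 of fasted K556R livers in batch 2 a Gdf15 level and replicate 4 of fasted WT livers in batch 2 an Fgf21 level far below the rest of their groups. Where leaving out one of these changed a call, the value without it is given. In a whole-tissue sample, fewer cells of a type and less RNA per cell cannot be told apart. The labels do not say that each library came from its own animal, so that p-values measure the spread between libraries.

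Per kilobase of exon, the 10 messages differed widely in level. Ahsg led with a median over the 29 libraries of 1522 CPM per kb, followed by Fetub at 170 and Lect2 at 131. The middle of the order was held by Igfbp2 at 60.4, Igfbp1 at 54.4, Igf1 at 46.7 and Inhbe at 20.9 CPM per kb. The stress hormones came low, with Gdf15 at 12.2 and Fgf21 at 11.8 CPM per kb, and Fst was last at 0.942. Library ranges of neighbours in this order overlapped, except for those of Ahsg and Fetub, of Igf1 and Inhbe, and of Fgf21 and Fst. Lengths were those of all annotated exons joined, 9.9 kb for Igf1 and 5.32 kb for Inhbe, so the order depends on the annotation. Without division by length, the median of Igf1 was 462.6 CPM, above Fetub at 333.3 and Lect2 at 120.8. The spread over libraries also differed: the highest library exceeded the lowest 67.4-fold for Igfbp1, 10.55-fold for Gdf15 and 6.31-fold for Igfbp2, but 1.34-fold for Ahsg. Within a group and batch the SD of log2 CPM was 0.95 for Igfbp1, 0.62 for Gdf15 and 0.54 for Fst, against 0.13 for Lect2 and 0.11 for Ahsg. Igf1, Fst, Inhbe and Ahsg each overlap an antisense gene (Igf1os, Gm47040, Gm47200 and Gm30505), and it is not stated whether counting used strand, so reads of each pair cannot be told apart; the antisense genes were counted at 42, 5, 14 and 61 reads at most.

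**Figure D1:**
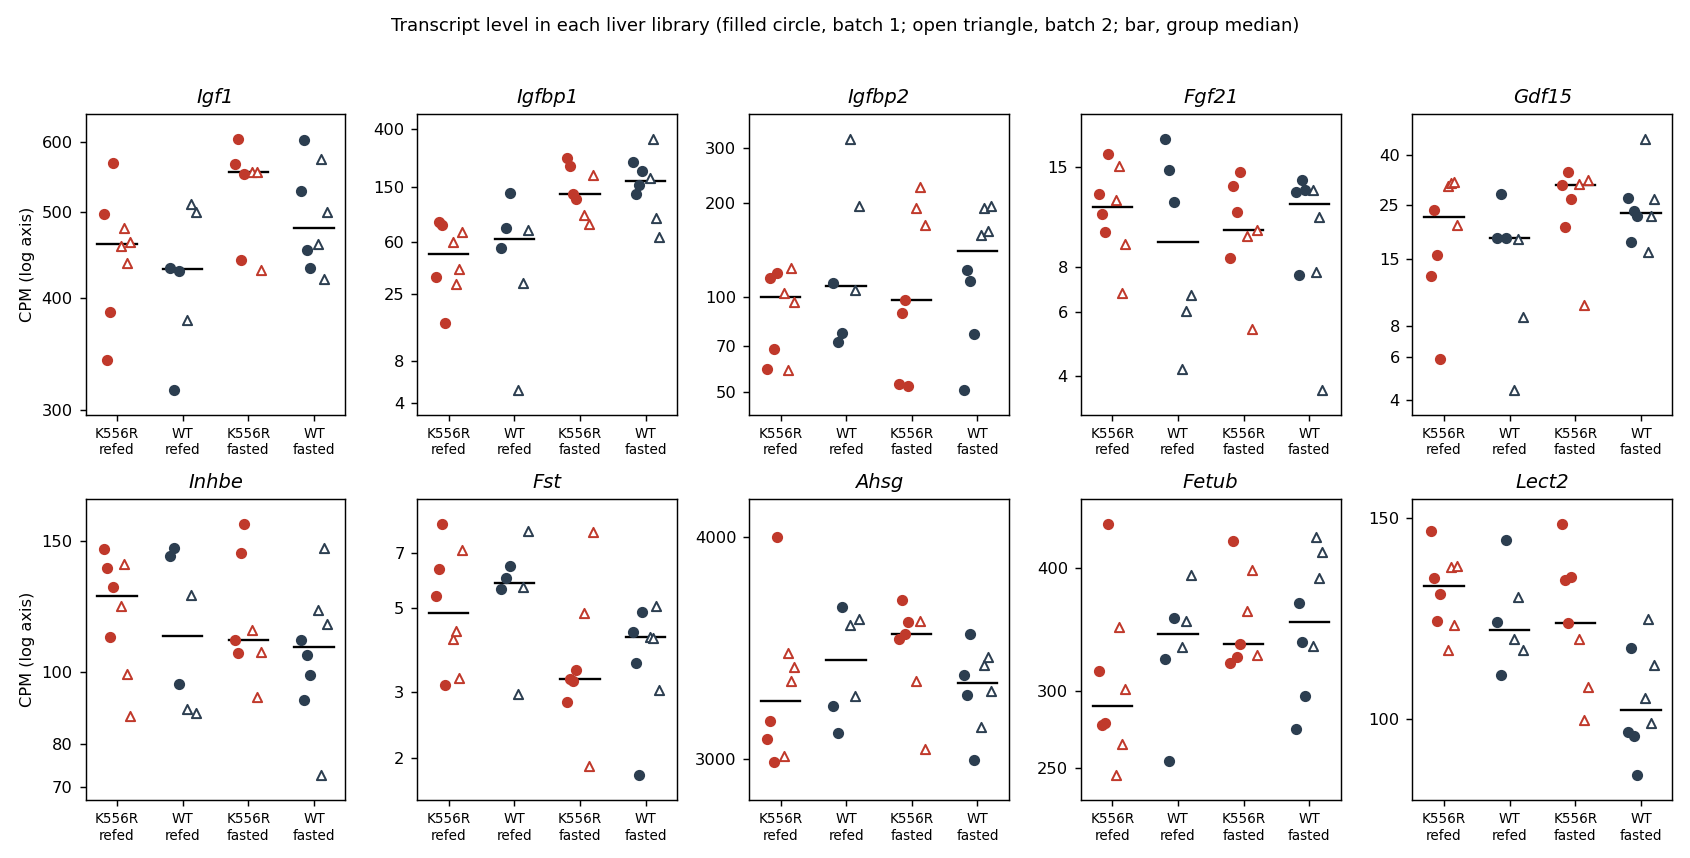
Level of each of the 10 genes in every liver library, in CPM on a log axis, for refed K556R (n = 8), refed WT (n = 6), fasted K556R (n = 7) and fasted WT (n = 8) livers. Filled circles are batch 1, open triangles batch 2 and the bar is the group median; Igfbp1 sits lower in refed livers of either genotype, and the lowest refed WT library stands at 4.98 CPM.

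Refeeding changed 4 of the 10 genes when both genotypes were averaged: Igfbp1 and Igf1 were lower and Fst and Lect2 higher in refed than in fasted livers (edgeR quasi-likelihood test, Benjamini-Hochberg adjusted p below 0.05). The number called was 2 without the filter on low counts, 2 without the batch term, 1 with the replicate number as a block and 1 to 5 when 1 library was left out. Over all genes tested, 25.6% passed the same threshold, 12.9% higher and 12.8% lower. Taken by genotype, Igfbp1 alone passed: 1 of 10 genes was lower in refed K556R livers, where 15.4% of all genes passed and 8.39% were lower, and 1 of 10 in refed WT livers, where 10.7% passed and 5.43% were lower. The median log2 fold change of the 10 genes was -0.06, against 0.01 over all genes, and 6 of 10 estimates were negative.

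Igfbp1, the insulin-repressed IGF binding protein (ENSMUSG00000020429, plus strand, chromosome 11, 7197782 to 7202546, mm10), made the widest move. Its level was 15.25 to 82.9 CPM (median 48.8) in refed K556R livers and 4.98 to 135 (median 63.1) in refed WT livers. Fasted K556R livers held 80.4 to 244.5 CPM (median 133) and fasted WT livers 65.1 to 336 (median 165). The refed and fasted ranges overlapped in each genotype, yet 7 of 8 refed K556R libraries and 3 of 6 refed WT libraries lay below the lowest fasted library of their genotype. Refed over fasted, the level was 0.35-fold in K556R livers (95% interval 0.20 to 0.63, log2 -1.52, SE 0.41, adjusted p = 0.0103) and 0.34-fold in WT livers (0.18 to 0.64, log2 -1.56, SE 0.445, adjusted p = 0.0204). Averaged over genotypes the log2 fold change was -1.54 (SE 0.30, adjusted p = 0.000265). It was -1.39 in batch 1 (adjusted p = 0.0193) and -1.73 in batch 2 (adjusted p = 0.00574), from a fit with a coefficient for each group in each batch that was added after the data were seen, as was its repeat without each of 4 libraries that stood apart. In K556R livers that fit gave -1.76 (adjusted p = 0.0449) in batch 1 and -1.265 (adjusted p = 0.155) in batch 2, and in WT livers -1.02 (adjusted p = 0.43) in batch 1 and -2.20 (adjusted p = 0.0413) in batch 2. In the planned edgeR fit of batch 2 alone the WT value was -2.205 and was not called (adjusted p = 0.091). The WT library at 4.98 CPM, replicate 1 of batch 2, also had the smallest total; without it the WT log2 fold change was -1.295 (adjusted p = 0.0315) over both batches and -1.69 (adjusted p = 0.147) in batch 2. Without the refed K556R library replicate 4 of batch 1 the K556R value in batch 1 was -1.46 (adjusted p = 0.144). The WT call was lost without the refed WT library replicate 2 of batch 2 (adjusted p = 0.0616) or the fasted WT library replicate 2 of batch 2 (0.0537).

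Among the 11 listed genes that insulin represses through FOXO1, Igfbp1 included, 7 were lower and 1 higher after refeeding, where 12.8% of all genes were lower and 12.9% higher, with a median log2 fold change of -0.39 against 0.01 over all genes. The lower genes included Pck1, the gluconeogenic enzyme (log2 -1.59, SE 0.14), Foxo1 itself (-0.92, SE 0.10) and the insulin receptor substrate Irs2 (-1.27, SE 0.175). Of the 11 estimates 8 were negative and 3 positive. G6pc, also on the list, was not lower in its means. It averaged 539 ± 78.7 CPM in refed and 397 ± 74.9 in fasted K556R livers, and 465 ± 140.4 in refed and 439 ± 142.4 in fasted WT livers (SD). The promoter of Igfbp1 is shown because it is where FOXO1 binding is best described. The 250 bases upstream of the RefSeq start (GRCm38.p6, chr11:7197537-7197786, plus strand) hold the letters CAAAACA, the core of the insulin response element, at 108 to 102 bases before the start, in capitals.
Igfbp1: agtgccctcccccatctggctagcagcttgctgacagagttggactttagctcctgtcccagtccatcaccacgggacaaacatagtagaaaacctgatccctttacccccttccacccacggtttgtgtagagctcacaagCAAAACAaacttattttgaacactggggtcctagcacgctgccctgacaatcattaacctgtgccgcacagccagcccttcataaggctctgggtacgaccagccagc
CAAAACA on either strand was present in 5.56% of 32851 RefSeq promoter windows of this length, and in none of the other 8 members with a window. The forkhead letters GTAAACA, found in 3.17% of windows, were in none of the 9. No entry was found for Fst. The RefSeq start used lay 2846 bases from the GENCODE gene start for Igf1 and 738 bases for Ahsg. Gdf15, Igfbp2 and Fetub had 2 entries each, of which only the nearest to the GENCODE start was searched. Absence from a window therefore does not cover other starts of these genes.

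Igf1 (ENSMUSG00000020053, plus strand, chromosome 10, 87858265 to 87937042) had 341 to 569 CPM (median 460.2) in refed K556R livers and 316 to 511 (median 431) in refed WT livers. Fasted K556R livers had 430.2 to 604 CPM (median 554.5) and fasted WT livers 420.3 to 603 (median 481), so that the groups overlapped. Refeeding lowered Igf1 to 0.86-fold over both genotypes (95% interval 0.77 to 0.96, log2 -0.22, SE 0.08, adjusted p = 0.0387). The estimate was close in K556R (-0.22, adjusted p = 0.175) and WT livers (-0.215, adjusted p = 0.262), and neither passed alone. By batch the value was -0.32 (adjusted p = 0.0452) and -0.12 (0.516), in the fit added after the data were seen. In the planned edgeR fit of batch 1 alone it was -0.304 and was not called (adjusted p = 0.104). The call was made in 11 of 29 fits that each left out 1 library, with log2 fold changes of -0.251 to -0.175, and was lost without the filter on low counts (adjusted p = 0.0583) and with the replicate block (0.0526). Of the libraries that stood apart, leaving out replicate 1 of refed WT livers in batch 2 (adjusted p = 0.0743), replicate 2 of fasted K556R livers in batch 2 (0.0634) or replicate 4 of fasted WT livers in batch 2 (0.0551) ended it. The batch 1 call was lost without the fasted K556R library replicate 2 of batch 2 (adjusted p = 0.0562) or the fasted WT library replicate 4 of batch 2 (0.06).

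Igfbp2 (ENSMUSG00000039323, plus strand, chromosome 1, 72824503 to 72852474), the second binding protein, did not pass in any comparison that pooled the batches. It had 58.8 to 124.5 CPM (median 99.9) in refed K556R livers and 71.95 to 320.4 (median 108.5) in refed WT livers. The values were 52.2 to 226 CPM (median 98.4) in fasted K556R and 50.8 to 195 (median 140.2) in fasted WT livers. All 4 ranges overlapped. Igfbp2 was higher in batch 2 than in batch 1 by a log2 difference of 0.90 (SE 0.18). In K556R livers the refeeding difference ran opposite ways in the batches: the log2 fold change was 0.30 (SE 0.30) in batch 1 and -1.04 (SE 0.32, adjusted p = 0.0318) in batch 2. In batch 2 the refed K556R livers had 58.8 to 124.5 CPM and the fasted K556R livers 170.3 to 226, with no overlap. The difference between batches was -1.34 (SE 0.44, adjusted p = 0.0853), and it missed the threshold that 3.54% of all genes passed. The batch 2 call was lost without the fasted K556R library replicate 2 (log2 -0.92, adjusted p = 0.137). Without the refed WT library replicate 1 of batch 2, Igfbp2 was called in batch 2 over both genotypes, at -0.635 (adjusted p = 0.0488) against -0.41 with it (adjusted p = 0.23).

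The calls within a batch given here came from the fit by batch added after the data were seen. Refeeding over both genotypes called 3 of the 10 genes in batch 1 (Igfbp1, Igf1 and Fst), where 18% of all genes were called, and 1 in batch 2 (Igfbp1), where 19.5% were. In K556R livers alone the calls were 1 in batch 1 (Igfbp1, against 9.88% of genes) and 1 in batch 2 (Igfbp2, against 13.7%). In WT livers there was none in batch 1 (5.86% of genes) and 1 in batch 2 (Igfbp1, 5.58%). In planned edgeR fits of a batch alone, Igf1 in batch 1 was not called over both genotypes (adjusted p = 0.104). Igfbp1 in batch 2 was not called in WT livers (0.091). Group ranges of refed and fasted K556R livers were apart for Igfbp1 in batch 1, as for 16% of genes, and for Igfbp1 and Igfbp2 in batch 2, as for 28.1% of genes. Those of WT livers were apart for Fst in batch 1, as for 15.8% of genes. The refeeding effects of the 10 genes did not differ between batches past the threshold, in WT livers (0% of genes, with 1355 at an unadjusted p below 0.05), in K556R livers or over both genotypes (2.74%).

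Neither stress hormone passed a test of refeeding. Fgf21 (ENSMUSG00000030827, minus strand, chromosome 7, 45613886 to 45615490) had 6.78 to 16.3 CPM (median 11.7) in refed K556R livers, 4.19 to 18.0 (median 9.38) in refed WT livers, 5.40 to 14.6 (median 10.1) in fasted K556R livers and 3.67 to 13.9 (median 11.9) in fasted WT livers. All 4 ranges overlapped almost fully. Refed over fasted, Fgf21 was 1.06-fold with a 95% interval of 0.84 to 1.34 (adjusted p = 0.78). Like Igfbp2, it carried a batch difference, with a log2 value of -0.57 (SE 0.17) for batch 2 over batch 1.

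Gdf15 (ENSMUSG00000038508, minus strand, chromosome 8, 70629393 to 70632456) had 5.89 to 31.1 CPM (median 22.3) in refed K556R livers and 4.41 to 27.8 (median 18.3) in refed WT livers. Fasted K556R livers had 9.79 to 33.96 CPM (median 30.1) and fasted WT livers 16.1 to 46.5 (median 23.1). All 4 ranges overlapped widely. Refed over fasted, Gdf15 was 0.72-fold (95% interval 0.52 to 1.00, log2 -0.47, SE 0.23, unadjusted p = 0.0492, adjusted p = 0.138). The log2 estimate was -0.50 in batch 1 and -0.59 in batch 2. In K556R livers it was -0.92 (SE 0.37) in batch 1 and 0.23 (SE 0.40) in batch 2, and in WT livers -0.07 (SE 0.40) in batch 1 and -1.40 (SE 0.43, adjusted p = 0.0516) in batch 2. Without the refed WT library replicate 1 of batch 2 the WT value in batch 2 was -1.05 (adjusted p = 0.215), whereas it passed without the refed K556R library replicate 4 of batch 1 (-1.40, adjusted p = 0.0309) or the fasted K556R library replicate 2 of batch 2 (-1.40, adjusted p = 0.0331).

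Fgf21 and Inhbe are known targets of the stress factor ATF4, and their promoter windows are shown because both hold the letters TGATGNAA of its composite element on the strand opposite to the one printed, seen in capitals as TTGCATCA. In Fgf21 (GRCm38.p6, chr7:45615491-45615740, minus strand) the match lies 139 to 132 bases before the RefSeq start, and the letters TATAAA lie at 28 to 23 bases before it. In Inhbe (chr10:127351849-127352098, minus strand) the match lies 181 to 174 bases before a RefSeq start that is 2563 bases from the start of the GENCODE gene.
Fgf21: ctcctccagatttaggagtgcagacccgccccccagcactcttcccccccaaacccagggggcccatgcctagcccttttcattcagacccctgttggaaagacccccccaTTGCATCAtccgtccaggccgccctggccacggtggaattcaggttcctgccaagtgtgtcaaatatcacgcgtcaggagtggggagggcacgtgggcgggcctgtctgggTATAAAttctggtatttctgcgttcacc
Inhbe: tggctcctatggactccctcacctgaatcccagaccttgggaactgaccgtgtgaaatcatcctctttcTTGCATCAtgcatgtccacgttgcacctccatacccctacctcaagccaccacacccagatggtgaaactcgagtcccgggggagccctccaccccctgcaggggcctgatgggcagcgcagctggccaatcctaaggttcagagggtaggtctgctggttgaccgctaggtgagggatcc
Searched on both strands, TGATGNAA was in 3.45% of the 32851 windows and in no other window of the 9; TATAAA was in 12.4% and also in that of Fetub. None of the motif matches overlap. Of 20 tested genes of a list of ATF4 targets that holds none of the 10 genes, 6 were lower and 2 higher after refeeding, beside 12.8% and 12.9% of all genes, with a median log2 fold change of -0.06 against 0.01 over all genes. Chac1, a glutathione-degrading enzyme, fell by 1.675 (SE 0.16), the pseudokinase Trib3 by 1.06 (SE 0.13) and Sesn2 by 0.70 (SE 0.09) on the log2 scale. Fgf21 and Inhbe did not pass the same test.

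Inhbe (ENSMUSG00000047492, minus strand, chromosome 10, 127348857 to 127354411) had 87.2 to 146.5 CPM (median 126.5) in refed K556R livers and 88.0 to 147 (median 112) in refed WT livers. The values were 92.5 to 158 CPM (median 110.4) in fasted K556R livers and 72.65 to 147 (median 108) in fasted WT livers. These ranges nearly coincided, and refed over fasted the log2 fold change was 0.06 (95% interval -0.14 to 0.27, adjusted p = 0.695). Its relatives Inhba and Inhbc were called in the same libraries. Inhba, the beta A chain of activin A, averaged 40.9 ± 17.0 CPM in refed K556R and 32.3 ± 7.74 in refed WT livers, against 7.80 ± 2.55 in fasted K556R and 6.67 ± 1.86 in fasted WT livers (SD). Inhba rose by 2.33 on the log2 scale (SE 0.16, adjusted p = 6.99e-12), with no overlap between refed and fasted livers. The share of all genes apart in this way with the batches pooled was not counted. Within a batch it was 16% and 28.1% for K556R livers in batches 1 and 2, and 15.8% for WT livers in batch 1. Inhbc, the beta C chain, rose by 0.61 (SE 0.08, adjusted p = 1.05e-06).

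Fst, the activin antagonist (ENSMUSG00000021765, minus strand, chromosome 13, 114452290 to 114458951), was counted at 34 to 174 reads a library, the lowest of the 10. It had 3.14 to 8.36 CPM (median 4.87) in refed K556R livers and 2.96 to 8.02 (median 5.855) in refed WT livers. Fasted K556R livers had 1.91 to 7.95 CPM (median 3.26) and fasted WT livers 1.81 to 5.09 (median 4.19). The ranges overlapped in both genotypes. Above the highest fasted library of their genotype lay 5 of 6 refed WT libraries but 1 of 8 refed K556R libraries. Over both genotypes Fst rose 1.43-fold (95% interval 1.1 to 1.86, log2 0.52, SE 0.185, adjusted p = 0.0394). The log2 value was 0.80 in batch 1 (SE 0.25, adjusted p = 0.0261) and 0.20 in batch 2 (SE 0.26, adjusted p = 0.66). The pooled call was made in 15 of 29 fits that left out 1 library, and was lost with the replicate block (adjusted p = 0.0631) and without the batch term (0.0501). It was also lost without replicate 2 of fasted K556R livers in batch 2 (adjusted p = 0.0576) or replicate 4 of fasted WT livers in batch 2 (0.0537). Alone, neither K556R livers (0.45, SE 0.26, adjusted p = 0.273) nor WT livers (0.59, SE 0.27, adjusted p = 0.176) passed.

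Ahsg (ENSMUSG00000022868, plus strand, chromosome 16, 22891277 to 22899449) had 2987 to 4000.0 CPM in refed K556R, 3102 to 3650.0 in refed WT, 3040.0 to 3687 in fasted K556R and 2997 to 3528 in fasted WT livers. All 4 ranges overlapped, with medians of 3234 CPM in refed K556R, 3412 in refed WT, 3525 in fasted K556R and 3310.0 in fasted WT livers. Refed over fasted, Ahsg was 0.99-fold with a 95% interval of 0.93 to 1.06. Fetub (ENSMUSG00000022871, plus strand, chromosome 16, 22918334 to 22939778) had 246 to 444 CPM (median 289) in refed K556R and 254 to 394 (median 343) in refed WT livers. Fasted K556R livers had 320.0 to 427 CPM (median 335) and fasted WT livers 274 to 430.4 (median 353). Fetub was 0.90-fold in refed livers (95% interval 0.81 to 1.01, adjusted p = 0.203). Without the refed K556R library replicate 4 of batch 1, the one with the highest level, Fetub passed at a log2 fold change of -0.20 over both genotypes (adjusted p = 0.0288) and of -0.32 in K556R livers (adjusted p = 0.0216).

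Lect2 (ENSMUSG00000021539, minus strand, chromosome 13, 56542464 to 56548502) had 115 to 146 CPM (median 131) in refed K556R livers and 109 to 143 (median 119.5) in refed WT livers. Fasted K556R livers had 99.9 to 148 CPM (median 121) and fasted WT livers 89.4 to 122 (median 102). With the batches pooled, fasted WT livers were the low group, and the other 3 overlapped widely. In batch 1 the fasted means were 133.6 CPM in K556R and 99.7 in WT livers. In batch 2 they were close, at 108 CPM in K556R and 109.4 in WT livers. Over both genotypes Lect2 rose 1.11-fold with refeeding (95% interval 1.03 to 1.21, log2 0.16, SE 0.06, adjusted p = 0.0386). The value was 0.155 in batch 1 (adjusted p = 0.129) and 0.18 in batch 2 (adjusted p = 0.0725), and the pooled call was made in 21 of 29 fits that left out 1 library. It was lost without the filter (adjusted p = 0.0671), with the replicate block (0.0604), without the batch term (0.0506) and without replicate 2 of fasted K556R livers in batch 2 (0.064). In WT livers the log2 fold change was 0.23 (SE 0.08, adjusted p = 0.0714) and in K556R livers 0.09 (SE 0.08, adjusted p = 0.519).

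**Figure D2:**
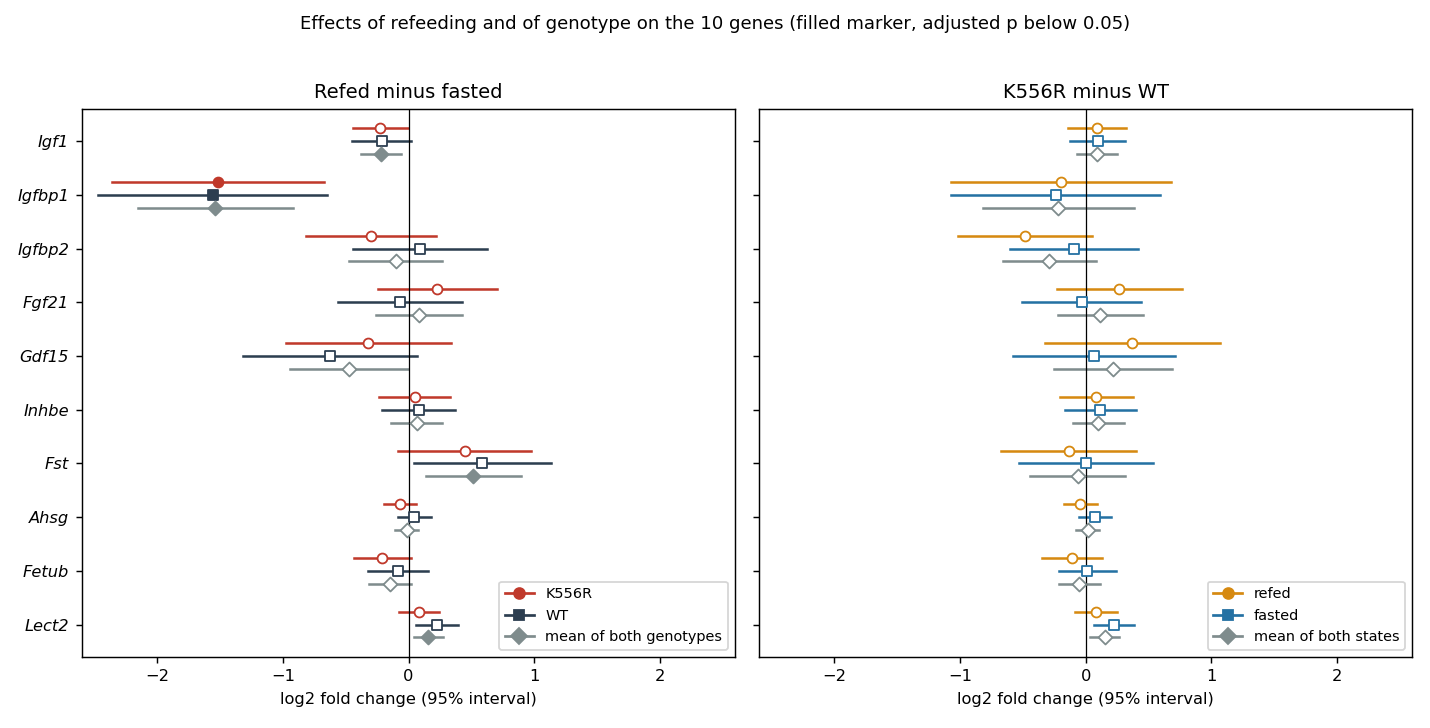
Log2 fold changes of the 10 genes with 95% intervals, for refed minus fasted livers (left: K556R, WT and the mean of both genotypes) and for K556R minus WT livers (right: refed, fasted and the mean of both states). A filled marker has an adjusted p below 0.05; the filled markers belong to Igfbp1 in all 3 refeeding contrasts and to Igf1, Fst and Lect2 in the mean, and there is none on the genotype side.

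K556R and WT livers were compared to ask whether loss of the Prox1 SUMO site alters the secreted factors. None of the 10 genes passed in refed livers (0% of all genes passed), in fasted livers (0.103%) or in the mean of both states (1.24%). In refed livers, 1319 genes had an unadjusted p below 0.05 and DESeq2 called 44 of all genes and 0 of the 10. At an unadjusted p below 0.05, none of the 10 genes passed in refed livers and 1, Lect2, passed in fasted livers and in the mean. The median log2 fold change of the 10 genes was 0.02 in refed and 0.04 in fasted livers, against 0.00 over all genes in both.

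For the IGF axis the intervals of K556R over WT, mean of both states, were 0.95 to 1.19-fold for Igf1, 0.57 to 1.3-fold for Igfbp1 and 0.63 to 1.06-fold for Igfbp2. The stress hormones had intervals of 0.86 to 1.37-fold for Fgf21 and 0.84 to 1.61-fold for Gdf15. Inhbe stood at 0.93 to 1.23-fold, Fst at 0.74 to 1.24-fold, Ahsg at 0.95 to 1.08-fold and Fetub at 0.86 to 1.08-fold. Lect2 stood at 1.03 to 1.2-fold (log2 0.15, SE 0.06, edgeR adjusted p = 0.183), an interval that left out 1 although the gene was not called. On the log2 scale the interval was widest for Igfbp1 and narrowest for Ahsg.

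Lect2 had the smallest genotype p of the 10. Its level in fasted K556R livers was 1.17-fold that in fasted WT livers (95% interval 1.04 to 1.3, log2 0.22, SE 0.08, unadjusted p = 0.00812, adjusted p = 0.338), and 1.06-fold in refed livers (0.94 to 1.19). In batch 1 the 4 fasted K556R libraries had 121 to 148 CPM and the 4 fasted WT libraries 89.4 to 115, without overlap, as for 5.2% of all genes. In batch 2 the fasted K556R libraries had 99.9 to 117.5 CPM and the fasted WT libraries 99.2 to 122. In the fit by batch the log2 fold change was 0.42 (SE 0.09, adjusted p = 0.0391) in batch 1, where 0.391% of genes passed and Lect2 was the 1 member among them, and -0.02 (SE 0.10, adjusted p = 0.983) in batch 2, where 0% passed and 1137 genes had an unadjusted p below 0.05. The difference between batches was -0.44 (SE 0.14, unadjusted p = 0.00381, adjusted p = 0.928), and 0% of genes passed that test, with 820 at an unadjusted p below 0.05. The batch 1 value without the fasted WT library replicate 4 of batch 2 was 0.42 (adjusted p = 0.0504). This fit by batch was added after the data were seen. The planned fit of batch 1 alone did not call Lect2 for genotype in fasted livers.

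Gdf15, Fgf21 and Igfbp2 had the smallest p of the 10 for a difference between batches in the refed genotype effect. In batch 2, Gdf15 had 29.8, 30.9, 31.1 and 20.8 CPM in refed K556R livers and 4.41, 18.2 and 8.74 CPM in refed WT livers, with every K556R library above every WT library. Fgf21 had 12.2, 15.1, 6.78 and 9.25 CPM in those K556R livers and 4.19, 6.055 and 6.68 CPM in the WT livers, again without overlap. Ranges were apart in this way for 10.9% of all genes. Igfbp2 went the other way, with 103, 58.8, 124.5 and 96.8 CPM in K556R and 320.4, 105.5 and 196 CPM in WT livers of batch 2.

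In batch 1 the refed K556R livers had 12.9, 23.9, 15.6 and 5.89 CPM of Gdf15 and the WT livers 18.4, 27.8 and 18.3 CPM, so that K556R was not the higher group there. As log2 fold changes, Gdf15 was -0.56 (SE 0.40) in batch 1 and 1.42 (SE 0.43, adjusted p = 0.178) in batch 2. Fgf21 was -0.25 (SE 0.305) in batch 1 and 0.93 (SE 0.33, adjusted p = 0.244) in batch 2, and Igfbp2 0.06 (SE 0.325) in batch 1 and -1.11 (SE 0.32, adjusted p = 0.158) in batch 2. None of the 10 genes was called within a batch, where 0.0449% of genes passed in batch 1 and 0.032% in batch 2. The difference between batches was 1.97 for Gdf15 (SE 0.58, unadjusted p = 0.00228, adjusted p = 0.22), 1.18 for Fgf21 (SE 0.45, adjusted p = 0.31) and -1.17 for Igfbp2 (SE 0.46, adjusted p = 0.316). No gene passed that test, with 1962 at an unadjusted p below 0.05. The refed WT library replicate 1 of batch 2 bears on all 3; without it the pooled refed log2 fold change was 0.15 for Gdf15 against 0.37 with it, 0.13 against 0.27 for Fgf21 and -0.25 against -0.48 for Igfbp2. Within batch 2 the values without it were 1.065 for Gdf15 (SE 0.45), 0.76 for Fgf21 (SE 0.375) and -0.66 for Igfbp2 (SE 0.33), and the differences between batches 1.62, 1.01 and -0.72, with adjusted p of 0.682, 0.682 and 0.714.

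**Figure D3:**
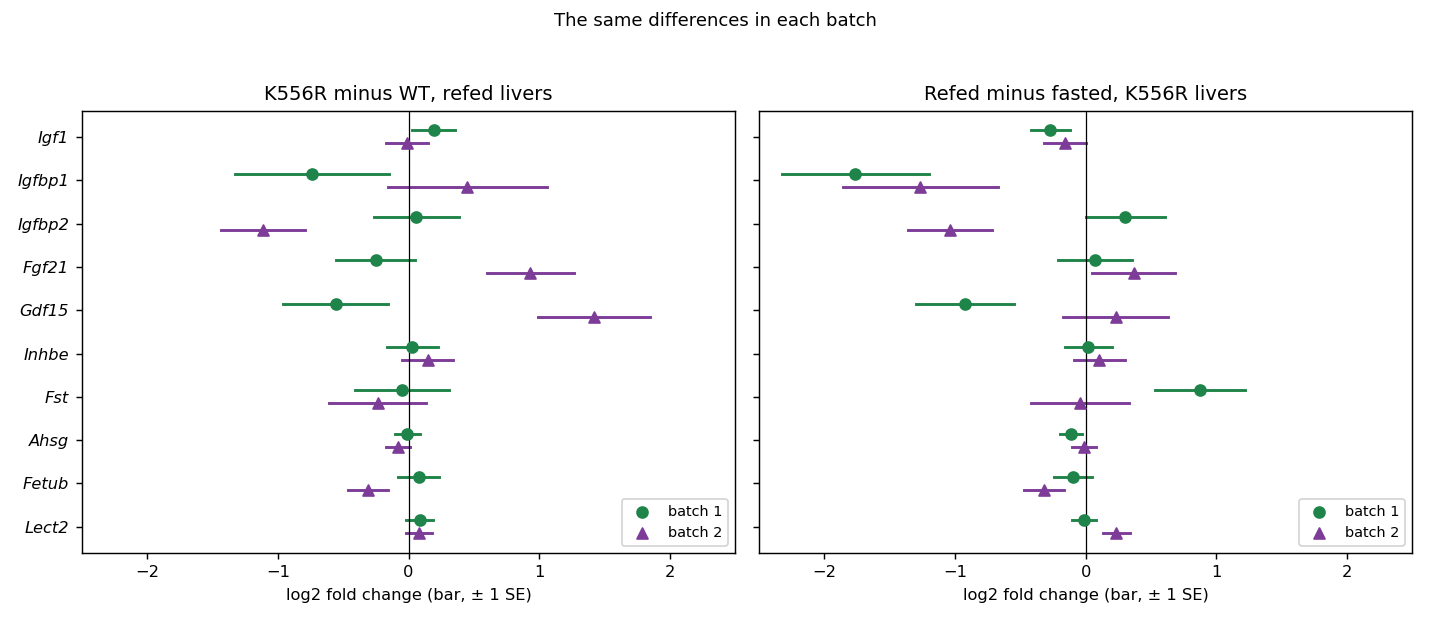
Log2 fold changes of the 10 genes within batch 1 (circles) and batch 2 (triangles), with bars of 1 SE, for K556R minus WT in refed livers (left) and refed minus fasted in K556R livers (right). On the left, Gdf15 reads -0.56 in batch 1 and 1.42 in batch 2, Fgf21 -0.25 and 0.93, and Igfbp2 0.06 and -1.11; on the right, Igfbp1 is below 0 in both batches.

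Whether the genotype changed the response to refeeding was tested as the difference of the genotype effects, refed minus fasted. It was called for 0 of the 10 genes and for 0% of all genes, with 440 genes and 0 of the 10 at an unadjusted p below 0.05 and 0 called by DESeq2. For Igfbp1, whose refeeding response was the strongest, the log2 difference was 0.04 with a 95% interval of -1.17 to 1.26. For Lect2 it was -0.14 (-0.37 to 0.09) and for Ahsg -0.12 (-0.30 to 0.07). As a ratio of folds the Igfbp1 interval was 0.44 to 2.39.

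Lists of partner genes, members included, were counted in the same tests, in which 25.6% of all genes passed for refeeding (12.9% higher, 12.8% lower) and 1.24% for genotype in the mean of both states. An excess over these shares was not tested, as the lists were chosen with earlier results of these data known. In the IGF axis and growth hormone relay, 22 of 26 listed genes were tested; 8 were lower and 1 higher after refeeding, with a median log2 fold change of -0.20. Beyond Igfbp1, the insulin receptor Insr fell by 0.35 (SE 0.06) and Irs2 by 1.27, whereas the other receptor substrate Irs1 rose by 0.41 (SE 0.09). Of the receptors and processing enzymes of FGF21 and GDF15, 10 of 13 were tested, with 3 higher and 3 lower. The convertase Furin fell by 0.23 (SE 0.05), Fgf1 by 0.38 (SE 0.08) and the receptor Fgfr1 by 0.37 (SE 0.09), and Fgfr3 rose by 0.42 (SE 0.11). Gfral, named here because it is the GDF15 receptor, had 0 counts in all 29 libraries, which allows at most 0.11 to 0.209 CPM (3 counts a library, counting error only).

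In the activin and follistatin family, 17 of 19 genes were tested and 6 rose and 5 fell, to be read, like the counts that follow, beside the 25.6% of all genes called. Besides Inhba and Inhbc, the type I receptor Acvr1b fell by 0.26 (SE 0.06) and the co-receptor Tgfbr3 by 0.31 (SE 0.08). Of 7 tested cystatin-superfamily genes 1 fell, the histidine-rich glycoprotein Hrg (by 0.19, SE 0.06). Among 18 other secreted regulators, 6 rose and 3 fell. The lipoprotein lipase inhibitors moved most and in opposite directions, Angptl8 up by 2.85 (SE 0.21) and Angptl4 down, having a log2 fold change of -1.65 (SE 0.08). Of the 17 listed PPAR-alpha targets 13 were lower and none was higher, Ppara itself by a log2 fold change of -0.76 (SE 0.08); Fgf21, which PPAR-alpha is known to activate, was not among the genes called. By genotype, in the mean of both states, 2 listed genes passed, where 1.24% of all genes did. They were 1 of 10 tested genes of the FGF21 and GDF15 list and 1 of 20 tested ATF4 targets. None passed among the 22 IGF axis, 17 activin, 7 cystatin, 18 other secreted, 11 FOXO1, 17 PPAR-alpha and 12 feeding-state genes tested, in lists that overlap. With batch 2 fitted alone 0 of all genes passed this contrast, so neither call was made there, against 125 in batch 1 alone. Furin averaged 229 ± 17.5 CPM in refed K556R and 269 ± 24.3 in refed WT livers, and 269 ± 16.2 in fasted K556R and 313 ± 28.1 in fasted WT livers (SD), a log2 fold change of -0.23 (SE 0.05, adjusted p = 0.00891). Eif4ebp1, a translation repressor and ATF4 target, had a log2 fold change of -0.25 (SE 0.06, adjusted p = 0.0284).

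**Figure D4:**
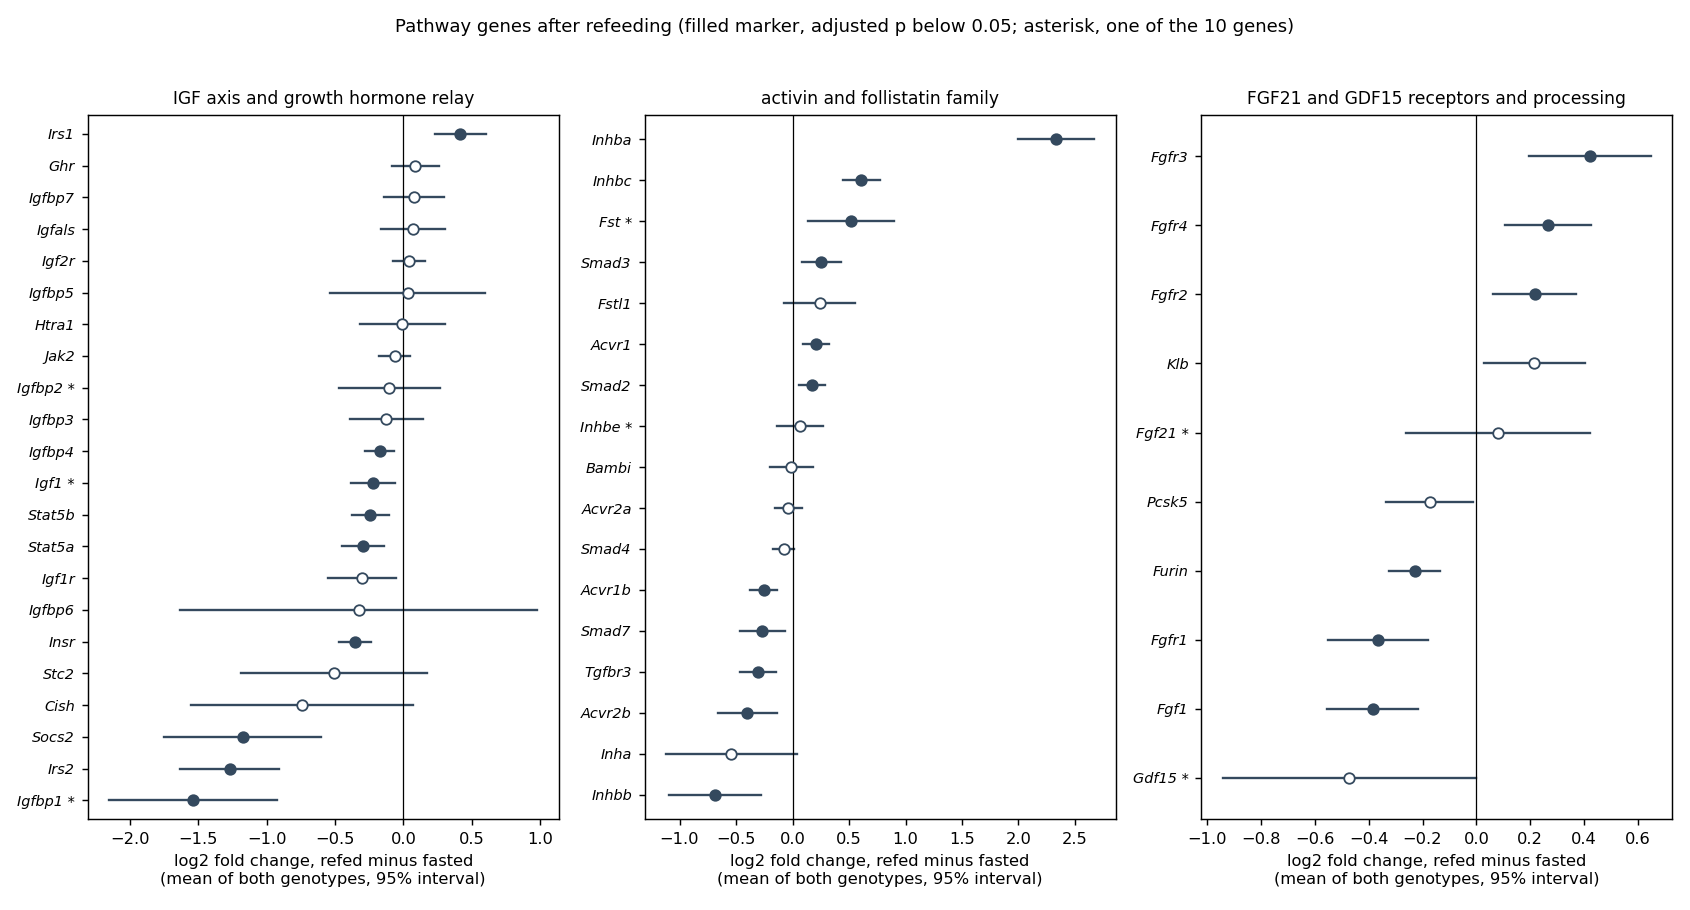
Log2 fold changes of refed minus fasted livers, mean of both genotypes, with 95% intervals, for the tested genes of the IGF axis (22), the activin and follistatin family (17) and the FGF21 and GDF15 receptors and processing enzymes (10). Filled markers have an adjusted p below 0.05 and asterisks mark genes of the 10; Inhba reads 2.33 and Fst 0.52 in the middle panel, Igfbp1 reads -1.54 on the left.

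The genes whose pattern was most like each member were sought among 10988 expressed genes, by Pearson r of log2 CPM over the 29 libraries after subtracting batch means; libraries of different feeding state, genotype and depth are pooled, so r also holds differences that both genes have between those groups. Igfbp1 was nearest to Hdc (r = 0.877) and Fbf1 (0.855), Igf1 to Sf3b1 and Dr1 (0.807 each) and Igfbp2 to S1pr5 (0.813) and Foxo4 (0.757). Fgf21 was nearest to Wdr1 (0.682) and Spg21 (0.676), and Gdf15 to Klf6 and Ttc39aos1 (0.773 each). Inhbe lay next to Rsad1 (0.754) and to Ddit3 (0.737), a gene of the ATF4 list, and Fst next to Meis2 (0.739) and Tnfrsf19 (0.726). Fetub had the highest value of all with the plasma protein gene Apoh (0.914), followed by Cd302 (0.882). Ahsg was nearest to Rpl9 (0.725) and the prothrombin gene F2 (0.692), and Lect2 to Gsta3 (0.836) and Akr1c20 (0.812). Among the 10 themselves the highest r was 0.663, for the neighbouring fetuin genes Fetub and Ahsg, followed by 0.618 for Igf1 with Fetub and 0.609 for Gdf15 with Igfbp1; the lowest was -0.485, for Gdf15 with Igfbp2.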

How the data were processed

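Livers were profiled by poly-A RNA-seq in 29 libraries. The deposited values are whole-number read counts per Ensembl gene; per the submitters' processing notes the build was mm10 and the aligners, counters and test packages named were TopHat, STAR, STAR-Fusion, HTSeq, edgeR and DESeq2, with roles and versions not given in the sources used here. Per the labels' protocols libraries were directional or non-directional, without saying which. Of 54532 identifiers, 54495 matched GENCODE M21; the other 37 held 0.001% of counts.

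From the counts, edgeR 4.0.16 (R 4.3.3) was run with TMM scaling, a filterByExpr minimum count of 10 and minimum total of 15, and a quasi-likelihood fit of the 4 groups plus batch. The 15603 genes kept held 99.92% of counts, at a common biological coefficient of variation of 0.191. The threshold for a call was 0.05 on the p adjusted by Benjamini and Hochberg's method across the tested genes. The fit was tested on simulated data. In all 92 pairs of libraries of a group the chi-square per degree of freedom was 11 or more, so none was a repeat deposit. Replicate numbers were not used as pairs. Alternatives were DESeq2 1.42.0, its size factors, no filter, a replicate block, each batch alone, no batch term and leaving out each library; a fit with a coefficient for each group in each batch was added after the data were seen, as was its repeat without each of 4 libraries that stood apart. Every member was named in each contrast, with at most 4 genes of smallest p from each list and the 2 nearest genes by correlation. Gfral and G6pc were named besides these. Members and lists were chosen with earlier results of these data known. Promoter sequences came from RefSeq (GRCm38.p6), 250 bases upstream, and 9 of 10 members matched. Intervals cover 95%.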

Additional observations from a re-analysis of the deposited data

Results flagged for a closer look

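In 40 combinations of 10 genes and 4 groups, 3 had a library far from the others of its group by Dixon's criterion on log2 CPM, where chance gives about 1 in 20. Gdf15 in fasted K556R livers was low in replicate 2 of batch 2, at a log2 CPM of 3.31 (9.79 CPM, where the other libraries had a median of 30.3). Without this library the Gdf15 log2 fold change of fasted K556R over fasted WT livers was 0.23, against 0.07 with it, and neither passed.

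Fst in refed WT livers was low in replicate 1 of batch 2, at a log2 CPM of 1.61 (2.96 CPM, the other libraries having a median of 6.02); without it the Fst response to refeeding was 0.59 (adjusted p = 0.0147 by edgeR), against 0.52 with it. Fgf21 in fasted WT livers was low in replicate 4 of batch 2, at a log2 CPM of 1.91 (3.67 CPM, the other libraries having a median of 12.8). Without it the Fgf21 log2 fold change was -0.135 for fasted K556R over fasted WT livers, against -0.03 with it, and -0.165 for refeeding in WT livers, against -0.07, and none of these passed.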

How the results depend on the processing

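The Igfbp1 fall after refeeding, averaged over genotypes, was called in all 29 fits that each left out 1 library, with log2 fold changes of -1.698 to -1.39 and edgeR adjusted p of 0.000125 to 0.00081. DESeq2 and the other size factors changed the direction or call of none of the 70 gene-level results. The calls of Igf1, Fst and Lect2 were close to the threshold. Averaged over genotypes, the number of the 10 genes called after refeeding was 4, against 2 without the filter, 2 without the batch term, 2 in batch 1 alone and 1 in batch 2 alone, and it was 1 to 5 when 1 library was left out. In WT livers it was 1, against 0 in each batch alone and 0 to 2 with 1 library left out, and in K556R livers 1 to 2. The causes were not tested, and a batch alone holds fewer libraries.

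Samples that share a number in a batch did not deviate together: over 40 pairs the correlation of deviations was -0.387 to 0.36 (median -0.029), and 5 were over 0.1. With the replicate number as a block, 1 of the 10 genes was called after refeeding over both genotypes, and over all genes 2 passed for genotype in fasted livers and 92 in the mean of both states; the Fst fasted genotype estimate turned to -0.035. The block is not a pairing by design.

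Over all genes, calls for genotype in fasted livers numbered 16, against 89 by DESeq2, 45 without the filter, 33 in batch 1 alone, 0 in batch 2 alone, 2 without the batch term and 2 to 46 with 1 library left out. In refed livers they numbered 0, against 44, 10 without the filter, 5 in batch 1 alone and 7 in batch 2 alone, and 0 to 20. In the mean of both states they numbered 194, against 426 by DESeq2, 125 in batch 1 alone, 0 in batch 2 alone, 98 without the batch term and 116 to 309. After refeeding, batch 1 alone gave 1497 calls in K556R livers, 846 in WT livers and 2652 over both genotypes, and batch 2 alone 592 in WT livers, against 2397, 1667 and 4001 with both batches.

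The estimates that changed sign were uncalled. In batch 1 alone these were, for the genotype in refed livers, Fetub 0.078, Fgf21 -0.251, Gdf15 -0.560 and Igfbp2 0.059; in fasted livers, Fgf21 0.015, Fst -0.200 and Igfbp1 0.010; in the mean, Fetub 0.110, Fgf21 -0.118 and Gdf15 -0.134. For refeeding they were Igfbp2 0.316 and Lect2 -0.003 in K556R livers, Fgf21 0.348 and Igfbp2 -0.054 in WT livers and Igfbp2 0.131 in the mean. For the difference of genotype effects they were Fgf21 -0.266, Fst 0.146, Gdf15 -0.852, Igf1 0.089, Igfbp1 -0.753 and Igfbp2 0.370. In batch 2 alone the genotype estimates that turned were Igf1 -0.010 and Igfbp1 0.446 in refed livers, Fetub -0.101, Gdf15 -0.202, Igfbp2 0.162, Inhbe -0.117 and Lect2 -0.005 in fasted livers, and Ahsg -0.030 and Fst 0.013 in the mean. For refeeding they were Fst -0.070 and Gdf15 0.208 in K556R livers, Inhbe -0.180 in WT livers, and Ahsg 0.017, Fgf21 -0.148 and Inhbe -0.047 in the mean, and for the difference of effects Inhbe 0.265 and Lect2 0.086. Without the batch term, Fgf21 was 0.014 for genotype in fasted livers and 0.004 for refeeding in WT livers, and the Igfbp1 difference of effects was -0.114.

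With 1 library left out, estimates that crossed 0 spanned, for genotype, Ahsg -0.008 to 0.03 in the mean, Igfbp1 -0.455 to 0.118 in refed livers, and in fasted livers Fetub -0.042 to 0.054, Fgf21 -0.135 to 0.081, Fst -0.269 to 0.127, Gdf15 -0.013 to 0.233, Igfbp1 -0.375 to 0.06 and Igfbp2 -0.197 to 0.003. For refeeding they spanned Ahsg -0.037 to 0.006 in the mean, and Fgf21 -0.225 to 0.067 and Igfbp2 -0.147 to 0.217 in WT livers. For the difference of effects they spanned Fst -0.282 to 0.13, Igf1 -0.082 to 0.048, Igfbp1 -0.237 to 0.34 and Inhbe -0.119 to 0.036. At 34 to 174 counts a library, Fst was the member with the least depth.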
